A study of Mus musculus with 16 samples.

Results

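The late return of WDR5 was compared with its continued absence in mouse embryoid bodies (EBs), floating clumps of differentiating embryonic stem cells. The comparison used 8 of the 16 samples of the study, the 4 of the T48h rescue and the 4 of the knockout (KO), chosen by their labels. Technical repeats were summed, which left 2 libraries a group, or 4 of 8 libraries in all. Each group is described by its libraries a and b, which have no order and are not paired across groups.

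All groups came from mouse embryonic stem cells with GFP knocked in at Rx, the older name of Rax, and were harvested at day 6 of the SFEBq method. In this method dissociated cells reaggregate quickly in serum-free medium, here GMEM with 5% knockout serum replacement (KSR), with 2% Matrigel, a gel of basement membrane proteins, added on day 1. The KO was Wdr5 knockout clone #3 with no Dox. The T48h rescue was the same knockout clone with an inducible human WDR5 transgene that was switched on by doxycycline (Dox), added at the time labelled T48h. Wild type (WT) and the T12h rescue, with Dox at T12h, serve below as reference levels. The knockout is a single clone, so effects of that clone and of the lost gene cannot be told apart, and the labels do not say whether the KO cells also carried the transgene. The KO and the T48h rescue share this clone but differ in Dox, so effects of Dox itself and of the returned WDR5 cannot be told apart.

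Wdr5 encodes a WD40-repeat protein that is a core subunit of the COMPASS/MLL complexes, the enzymes that methylate lysine 4 of histone H3 at active promoters. Embryonic stem cells leave pluripotency through a primed state and then, depending on BMP, Wnt and Nodal signals, become mesoderm, endoderm or neural tissue. Serum-free aggregates with Matrigel favour the neural route and the eye field, whereas heart muscle, vessels and connective tissue come from mesoderm.

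Levels are fragments of a gene in CPM, the share of its library scaled for library composition. A gene is called higher or lower when its adjusted p in edgeR's quasi-likelihood test is under 0.05, and log2 fold changes (T48h rescue over KO) are given ± their standard error. The KO libraries held 65687443 and 35685687 fragments in named genes and the T48h rescue libraries 39762138 and 44661330, so 3 fragments in a group amounted to 0.0285 CPM in the KO and 0.0387 CPM in the T48h rescue. Libraries a and b of the T48h rescue differed from each other more than those of the KO, with a mean chi-square per degree of freedom between their columns of 53.6 to 55.1 against 21.7 to 22.9. The labels do not say that the duplicates were separate cultures, so the p-values rest on a spread between libraries that may be technical only. In bulk RNA, a lower level from fewer cells of a type and from less RNA per cell cannot be told apart.

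Of 16130 genes tested, 10864 (67.4%) were called, 5510 (34.2%) higher in the T48h rescue and 5354 (33.2%) lower. The median log2 fold change over all genes tested was -0.003. The libraries of the T48h rescue lay wholly above those of the KO for 41.3% of genes and wholly below them for 41.4%. Counting genes called with at least a 2-fold change, 2580 (16%) were higher and 3362 (20.8%) were lower. The large changes leaned downward, with 331 genes at a log2 fold change of 4 or more and 933 at -4 or less. Each gene list below is read against these shares. The 33 lists held 577 different genes, of which 549 were tested, with 251 called higher and 208 lower.

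**Figure D1:**
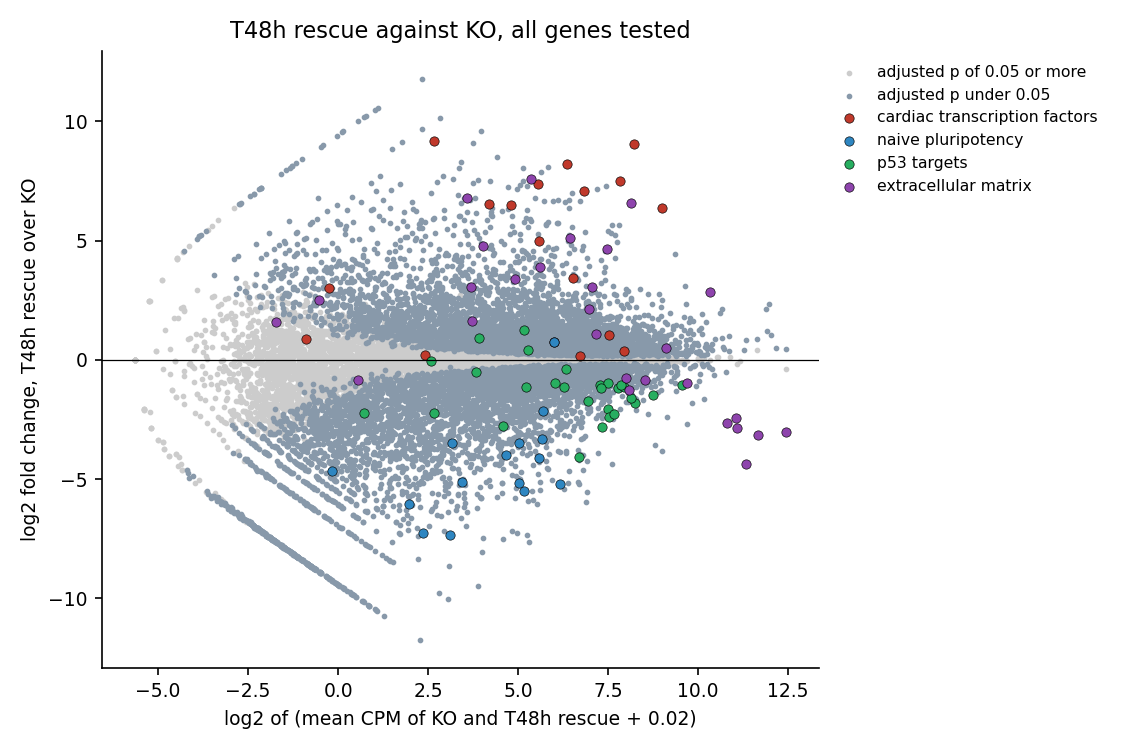
Log2 fold change of the T48h rescue over the KO (vertical axis) against the log2 of the mean CPM of both groups plus 0.02 (horizontal axis), 1 point a gene, for 16130 genes. Coloured points are members of 4 gene lists: cardiac transcription factors lie at or above 0, p53 targets and naive pluripotency genes mostly below it, and extracellular matrix genes on both sides, and the straight diagonal rows on the left are genes with 0 or very few fragments in 1 group, whose fitted fold changes are no measured size.

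Wdr5 itself (counted at the locus 27515147 to 27536538 of chromosome 2 on mm10) was measured first as a check of the labels. The KO libraries held it at 32.5 and 28.4 CPM, the T48h rescue libraries at 279.9 and 293.9 CPM. The groups did not overlap, and the log2 fold change was 3.23 ± 0.08 (edgeR adjusted p = 4.83e-12). Levels in WT were 185.6 and 186.5 CPM, below those of the T48h rescue by a log2 difference of 0.62 ± 0.07 (edgeR adjusted p = 1.39e-05). The table has a single value per gene, so fragments of human WDR5 that aligned to the mouse gene are part of these levels. Of the 19 COMPASS/MLL subunits, 7 were higher and 8 lower, with a median of -0.05, and Wdr5 was the member with the largest change. Ash2l, another core subunit, had a log2 fold change of -0.30, the methyltransferase Kmt2d (listed as Mll2) one of -0.61, and the subunit Pagr1a one of 0.72.

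The heart and lateral plate programme held many of the largest increases. Hand1, a basic helix-loop-helix factor of heart, lateral plate and extraembryonic mesoderm, stood at 11.4 and 13.2 CPM in the KO and at 1043 and 966.5 CPM in the T48h rescue. The T-box factor Tbx20, needed for heart chamber formation, went from 2.50 and 2.46 CPM to 434.1 and 468.5 CPM. Hand2, the paralogue of Hand1 in the right ventricle, limb and branchial arches, went from 1.30 and 0.863 CPM to 617.7 and 576.9 CPM. For each of the 3, both T48h rescue libraries lay far above both KO libraries. Hand1, Tbx20 and Hand2 were counted at the mm10 loci chr11:57828713-57841866, chr9:24720812-24774303 and chr8:57320983-57324517, in that order. Their log2 fold changes were 6.36 ± 0.17 for Hand1 (edgeR adjusted p = 7.01e-12), 7.504 ± 0.15 for Tbx20 (edgeR adjusted p = 1.32e-12) and 9.03 ± 0.17 for Hand2 (edgeR adjusted p = 9.32e-13). Neither WT nor the T12h rescue held such levels: Hand1 stood at 9.35 and 7.71 CPM in WT and 3.90 and 6.54 CPM in the T12h rescue.

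Of the 18 cardiac transcription factors, 15 were higher and none was lower, with a median log2 fold change of 5.67. Gata5, a zinc finger factor of heart and endoderm precursors, rose from 0.498 and 0.621 CPM to 157.6 and 169.8 CPM (log2 fold change 8.23 ± 0.16, edgeR adjusted p = 9.33e-13). Mef2c, a MADS-box factor of muscle, rose from 1.44 and 2.08 CPM to 214.8 and 239 CPM. Isl1, a marker of second heart field progenitors, and Tbx5, a factor of the first heart field, rose by 6.495 ± 0.31 and 6.52 ± 0.34 on the log2 scale. Factors of both heart fields were among the genes that rose. Myocd, a coactivator of serum response factor in smooth and heart muscle, stood at 2.91 CPM in both KO libraries and at 77.5 and 106.7 CPM in the rescue. Nkx2-5, an early heart factor, had 2 fragments in the KO against 977 in the T48h rescue, a ratio of 664 (95% counting interval 183 to 5491). Gata4 and Gata6, which already stood above 100 CPM in the KO, rose by only 0.35 and 1.04 on the log2 scale. Mesp1, Srf and Hopx did not pass the test, though Srf did with limma on log2(FPKM + 1).

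The promoters of Hand2, Tbx20 and Gata5, which rose, and of Nodal, which fell (below), are printed to show the sequence before the start of genes that moved in opposite directions. Each line holds the 250 bases before the gene start from RefSeq on GRCm38.p6, read 5′ to 3′ along the gene's strand. For Gata5 this window lies inside the locus whose fragments were counted, bases 180321148 to 180340732 of chromosome 2. Matches on either strand to AGATAA, a form of the GATA factor motif, are in capitals. Other forms, such as the tgataa in the Hand2 window, were neither marked nor counted.
Hand2 (chr8:57320733-57320982, plus strand): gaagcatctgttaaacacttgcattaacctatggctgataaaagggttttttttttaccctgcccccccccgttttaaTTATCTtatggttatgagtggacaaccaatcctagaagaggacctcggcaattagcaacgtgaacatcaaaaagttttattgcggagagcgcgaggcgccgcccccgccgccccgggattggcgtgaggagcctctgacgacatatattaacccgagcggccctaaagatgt
Tbx20 (chr9:24774304-24774553, minus strand): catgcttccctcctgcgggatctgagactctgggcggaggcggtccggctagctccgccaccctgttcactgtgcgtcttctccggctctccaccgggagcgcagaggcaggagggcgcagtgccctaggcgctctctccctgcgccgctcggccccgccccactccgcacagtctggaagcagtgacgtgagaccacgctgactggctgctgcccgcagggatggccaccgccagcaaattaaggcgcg
Gata5 (chr2:180334680-180334929, minus strand): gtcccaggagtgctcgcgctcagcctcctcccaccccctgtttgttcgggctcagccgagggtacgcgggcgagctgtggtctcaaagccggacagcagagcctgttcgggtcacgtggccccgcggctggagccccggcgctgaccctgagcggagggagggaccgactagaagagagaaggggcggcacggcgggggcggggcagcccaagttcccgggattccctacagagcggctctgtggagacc
Nodal (chr10:61417722-61417971, plus strand): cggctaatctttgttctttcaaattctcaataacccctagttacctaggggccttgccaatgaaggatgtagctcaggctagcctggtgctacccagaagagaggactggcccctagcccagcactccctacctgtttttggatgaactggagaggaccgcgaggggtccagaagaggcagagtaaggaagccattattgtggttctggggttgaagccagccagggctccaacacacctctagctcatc
AGATAA, counted on both strands, occurred once in the Hand2 window and in 9.99% of the 32851 windows of this length in the table. The GC box GGGCGG, found in 32.7% of windows, had 2 matches each in Hand2, Tbx20 and Gata5 and none in Nodal. These 4 genes were picked by hand: of 99 windows of named genes, 56 held it, with 3 of 6 among the largest increases and 2 of 9 among the largest decreases. The CCAAT box, found in 33.8% of windows, had 2 matches in Hand2 and 1 in Nodal. The E-box CANNTG, the site type of basic helix-loop-helix factors and present in 66.2% of windows, had 2 matches in Hand2 and 1 in Gata5. No window held TATAAA, which occurred in 12.4% of windows. These matches describe letters in short windows and say nothing of binding.

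**Figure D2:**
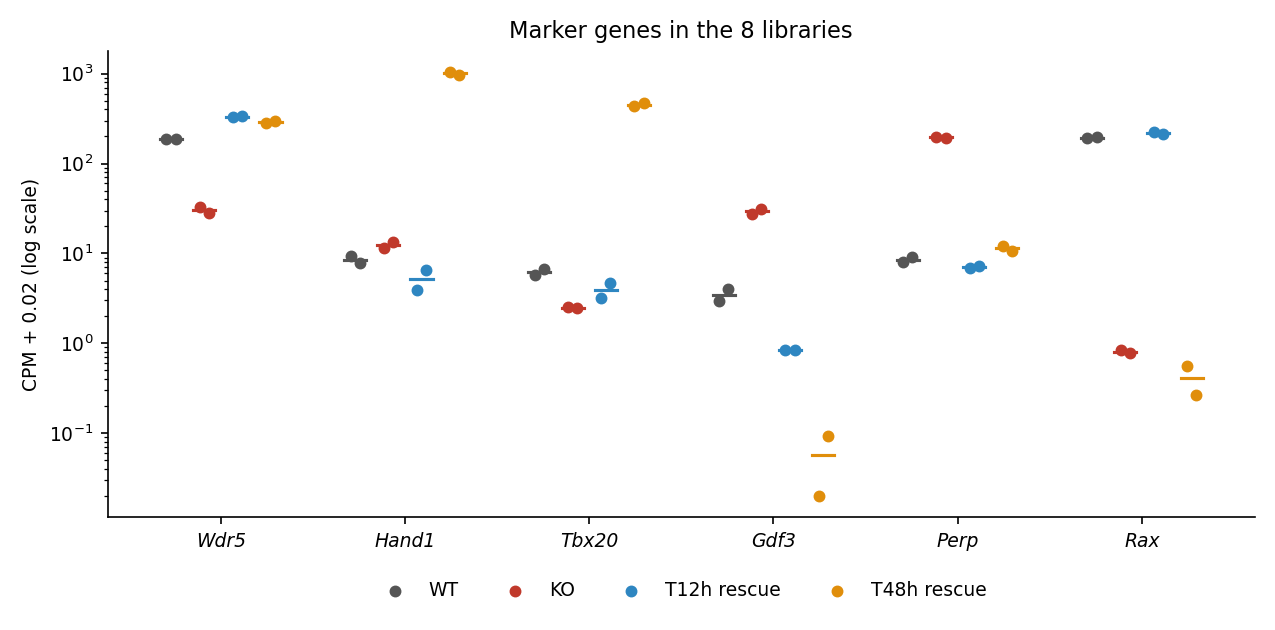
CPM plus 0.02 on a log axis of 6 marker genes in all 8 libraries, 2 points a group with a line at their mean. Hand1 and Tbx20 stand in the T48h rescue far above the other 3 groups, Gdf3 and Perp stand highest in the KO, and Rax stands near 200 CPM in WT and the T12h rescue but under 1 CPM in the KO and the T48h rescue.

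Genes of the contractile apparatus followed in part. Of 24 listed genes 22 could be tested, of which 16 were higher and 3 lower, with a median of 2.26. Tnnt2, the troponin T of heart muscle, rose from 2.04 and 3.29 CPM to 137.9 and 132.6 CPM (log2 fold change 5.71 ± 0.19, edgeR adjusted p = 3.72e-11). Myl7, the atrial regulatory light chain, rose from 2.21 and 1.81 CPM to 173.2 and 164.1 CPM, and Tnni1, the slow skeletal troponin I used by embryonic heart muscle, from 1.64 and 1.62 CPM to 176.4 and 164.6 CPM. These rises left no overlap between the groups. Actc1, the cardiac actin, and Myl4, the embryonic atrial light chain, rose by 5.93 and 5.83 on the log2 scale. The 3 genes that fell were Myl3, Tnni3 and Nppb. Myl3, the ventricular essential light chain, went from 13.2 and 13.8 CPM to 7.57 and 9.07 CPM (log2 fold change -0.70 ± 0.20, edgeR adjusted p = 0.00686). Tnni3, the cardiac troponin I, went from 2.52 and 3.21 CPM to 1.63 and 0.980 CPM, and its log2 fold change of -1.13 (edgeR adjusted p = 0.0488) was not called without KO replicate b (-0.94, edgeR adjusted p = 0.164) or T48h rescue replicate b (-0.80, edgeR adjusted p = 0.189), nor by DESeq2 (adjusted p = 0.0604). Nppb, a natriuretic peptide, fell from 2.40 and 1.38 CPM to 0.191 and 0.392 CPM (log2 fold change -2.68 ± 0.72, edgeR adjusted p = 0.00515), a call lost without KO replicate a (-2.25, edgeR adjusted p = 0.0615), and its value was -3.29 without T48h rescue replicate b. Its neighbour Nppa stood at 0.263 and 0.486 CPM in the KO and at 0 and 0.098 CPM in the rescue and did not pass the test. The ventricular light chain Myl2 stood under 1 CPM in all 4 libraries. The calcium pump Atp2a2 and the channel Ryr2 rose by 0.50 and 2.65.

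Other derivatives of lateral plate mesoderm were also higher. Of 14 genes of lateral plate and extraembryonic mesoderm, 11 were higher and 1 lower (median 3.81), and of 15 genes of smooth muscle and pericytes, 10 were higher and 2 lower (median 1.15). Acta2, smooth muscle actin, rose from 12.02 and 15.5 CPM to 442.9 and 396.1 CPM, and Pdgfrb, the PDGF receptor of pericytes, rose by 5.29 ± 0.18 on the log2 scale (edgeR adjusted p = 3.68e-11). Myh11, the myosin of mature smooth muscle, did not pass the test and stood under 2 CPM in each library. The exception in the lateral plate list was Tbx4, a factor of hindlimb and allantois, which fell by 2.98 on the log2 scale. Of 14 genes of epicardium and mesenchyme, 9 were higher and 1 lower (median 3.35). Tcf21, a factor of epicardium and fibroblast precursors, went from 0.337 and 0 CPM to 12.4 and 12.5 CPM (log2 fold change 5.95, or 11.94 without KO replicate a and 5.20 without KO replicate b), while Wt1, a further epicardial factor, had 1.92 and 1.89 CPM in the KO and 3.00 and 3.26 CPM in the rescue and did not pass the test.

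The list of fibroblast markers is not separate from these lists. Thy1, Col1a1, Col3a1, Dcn, Lum and Pdgfra are also members of the epicardium and mesenchyme list. Of the 11 fibroblast markers 8 were tested, with 5 higher and 1 lower. Their summed level went from 333.9 and 366.6 CPM in the KO to 1298 and 1402 CPM in the T48h rescue. The genes that rose were collagens, Loxl1 and Pdgfra, which mesoderm also expresses. The fibroblast genes Fap and Mmp3 had no fragment in either T48h rescue library. Thy1 had a log2 fold change of -2.08, or -1.43 without T48h rescue replicate a and -3.46 without T48h rescue replicate b. The part of fibroblasts in the results on matrix and mesenchyme was not tested.

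Vessel genes rose and blood genes rose in part. Of 20 endothelial genes, 14 were higher and 2 lower, with a median of 1.97. Kdr, the VEGF receptor of vessel and blood precursors, stood at 2.59 and 1.19 CPM in the KO and at 283.4 and 295.6 CPM in the rescue. Its log2 fold change was 7.15 ± 0.19 (edgeR adjusted p = 5.70e-12) and 7.89 without KO replicate a. Tal1, a factor of blood and endothelial precursors, rose from 0.366 and 0.324 CPM to 52.3 and 53.1 CPM, and Etv2, which starts the endothelial programme, from 0.878 and 0.567 CPM to 10.2 and 14.4 CPM. The cadherin gene Cdh5, the receptor gene Tek and the adhesion gene Pecam1 were already present in the KO, at 12.8 to 58.4 CPM, and rose by 1.57, 1.74 and 2.196. Sox17, a factor of both endoderm and arterial endothelium, fell from 144 and 153.3 CPM to 25.6 and 23.9 CPM, and Flt1 fell by 0.70 on the log2 scale. In the blood list 7 of 14 tested genes were higher and 1 lower (median 0.85). Lmo2, a partner of Tal1, rose by 4.07, whereas Runx1, the factor of definitive blood, fell by 1.31. Gata1 and Klf1, factors of red cells, and Spi1 (listed as Sfpi1), a myeloid factor, did not pass the test and stood under 1.2 CPM in each library, and the leukocyte marker Ptprc had no fragment in the rescue.

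Earlier mesoderm and other mesoderm types behaved differently. None of 17 primitive streak genes was higher and 9 were lower, with a median of -1.43. At an unadjusted p under 0.05 edgeR called 11283 of 16130 genes, and 1 primitive streak gene was higher under 4 of the alternatives listed in the closing section, among them limma on log2(FPKM + 1). Eomes, a T-box factor of the streak, fell from 25.9 and 20.9 CPM to 4.49 and 7.28 CPM, and brachyury (T) from 4.43 and 3.59 CPM to 0.381 and 0.122 CPM (log2 fold change -4.00, or -5.03 without T48h rescue replicate a and -3.39 without T48h rescue replicate b). Of 16 paraxial mesoderm genes, the precursors of somites, 12 were tested, with 2 higher and 6 lower (median -0.91). Msgn1 and Ripply2 had no fragment in any of the 8 libraries. Foxc1, a forkhead factor shared by somites, vessels and heart, was 1 of the 2 that rose, by 2.48 on the log2 scale. Of 20 endoderm genes, 6 were higher and 12 lower (median -0.88), and the 6 included Gata4, Gata6 and Sox7, which heart or vessel cells express too. Foxa2, a factor of definitive endoderm and node, fell from 41.1 and 39.7 CPM to 7.71 and 7.82 CPM. Trophoblast genes split, 7 higher and 8 lower of 17 (median -0.40). Tfap2c fell by 4.15 while Cdx2, shared with extraembryonic mesoderm, rose by 1.81.

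Among the 12 largest increases by the naming rule, 4 were Hox genes of the Hoxb cluster, and the others were Hspb7, Nr1h5, Nkx2-5, Fli1, Hand2, Gata5, Snai2 and Irf5. Hspb7, a small heat shock protein of heart muscle, had 1 fragment in the KO and 784 in the rescue (ratio 1066, 95% counting interval 191 to 42150). Fli1, an ETS factor of vessels and blood, rose from 0.0585 and 0.0270 CPM to 24.9 and 28.9 CPM. Nr1h5, a nuclear receptor of sterols, went from 0.0585 and 0 CPM to 29.98 and 32.4 CPM, and Irf5, an interferon regulatory factor, from 0.0878 and 0.0539 CPM to 19.03 and 21.5 CPM. All 12 stood below 2 CPM in the KO. Their levels above 5 CPM in the rescue follow from the naming rule, which asked for 5 CPM or more in the higher group. Some fitted sizes moved when 1 KO library was left out: that of Nr1h5 was 9.60 over both, 13.27 without KO replicate a and 8.99 without KO replicate b, and that of Fli1 was 9.07 and 9.77 without KO replicate a.

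**Figure D3:**
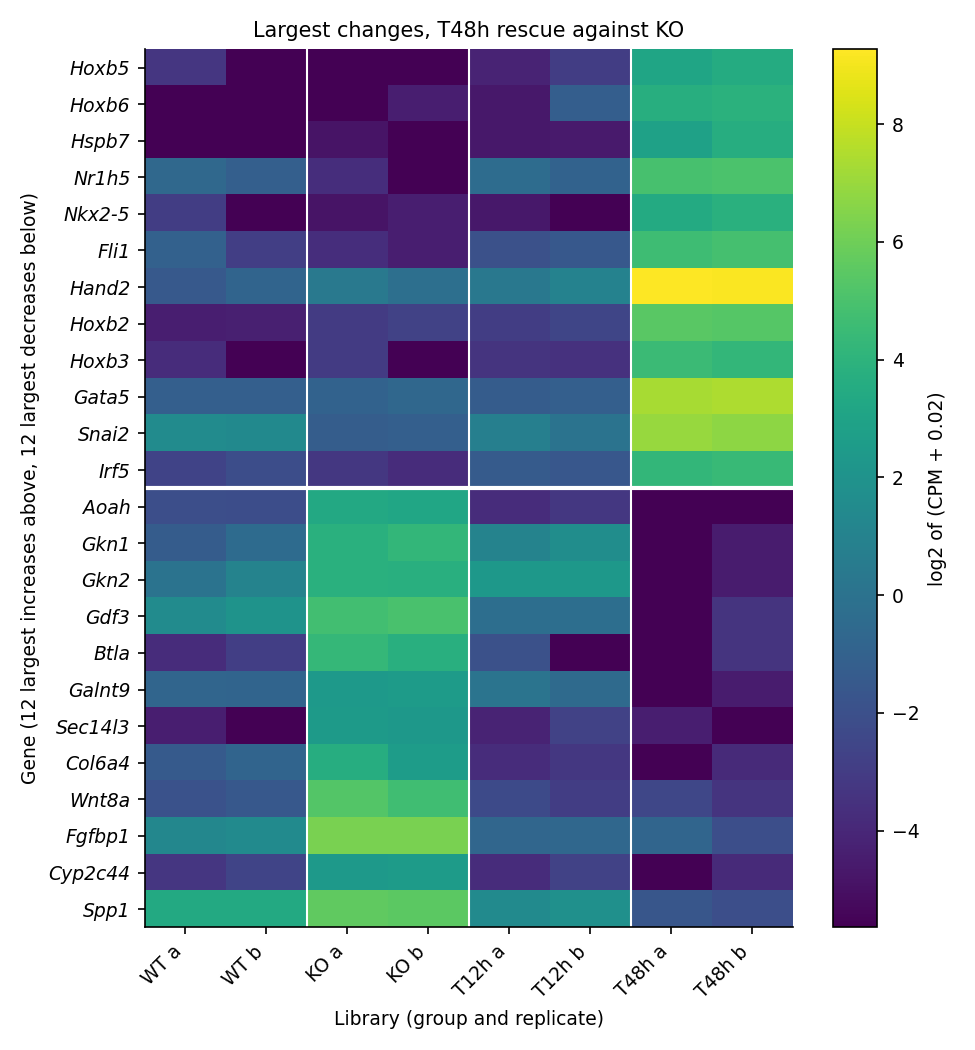
Log2 of CPM plus 0.02 for the 12 largest increases (upper rows) and the 12 largest decreases (lower rows) in all 8 libraries, with groups as pairs of columns. The upper genes are bright in the T48h rescue columns and dark in the other 3 groups, and the lower genes are bright in the KO columns.

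Hox genes encode the homeobox factors that mark position along the body axis, and a gene nearer the start of a cluster is used further forward. Of 39 Hox genes 27 passed the filter on low counts, with 20 higher and 2 lower and a median of 4.14. A gene that passed only through its high group had to differ, so these counts do not describe all 39. Summed over the list, levels were 15.6 and 17.99 CPM in the KO and 183.4 and 183.3 CPM in the T48h rescue, against 3.22 and 3.35 CPM in WT. The Hoxb cluster made up most of the total in the T48h rescue. Its sum went from 8.43 and 7.36 CPM to 133.2 and 126.5 CPM. Within it, 8 of 9 tested genes were higher. Hoxb5 had no fragment in the KO and 8.63 and 11.4 CPM in the rescue, at least 353.9-fold higher than the floor of 3 fragments over the group. Hoxb6 had 1 fragment in the KO against 1093, a ratio of 1486 (95% counting interval 266 to 58740). Hoxb2 rose from 0.103 and 0.135 CPM to 43.9 and 40.5 CPM (log2 fold change 8.49 ± 0.27, edgeR adjusted p = 3.05e-11), and Hoxb3 from 0.103 and 0 CPM to 23.04 and 19 CPM. The fitted value of Hoxb3 was 8.28 and became 12.7 without KO replicate a and 7.65 without KO replicate b.

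The 2 Hox genes called lower were Hoxb9 and Hoxc13. Hoxb9 fell from 6.97 and 5.56 CPM to 1.03 and 1.15 CPM (log2 fold change -2.52 ± 0.48, edgeR adjusted p = 0.000470), and Hoxc13, the last gene of the Hoxc cluster, fell from 3.53 and 3.91 CPM to 0.300 and 0.196 CPM. In the Hoxa cluster 5 of 8 tested genes were higher. The Hoxd cluster had 5 higher of 6 tested and the Hoxc cluster 2 higher and 1 lower of 4. With FPKM values in limma, 12 Hox genes in place of 20 were called higher, of 14 tested there in place of 27.

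**Figure D4:**
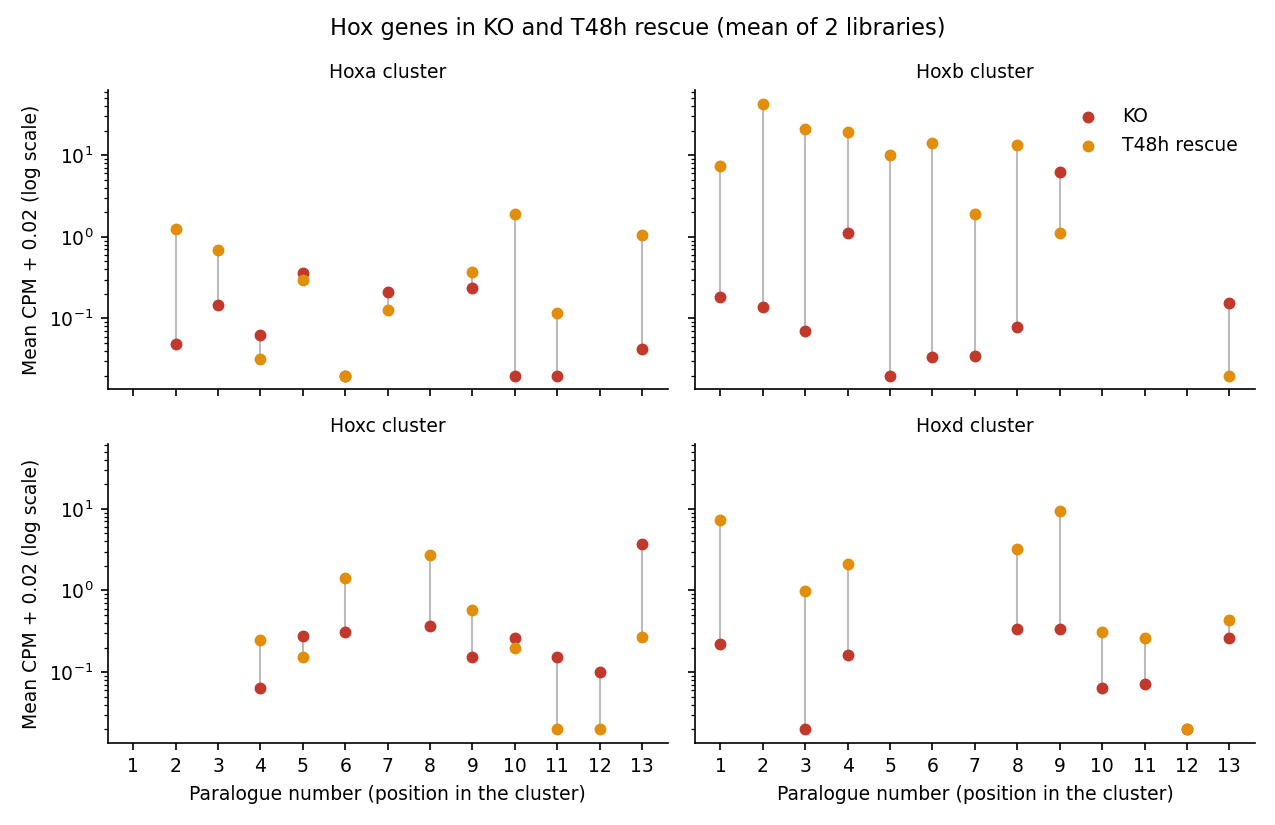
Mean CPM plus 0.02 (log axis, n = 2 libraries) of Hox genes in the KO and the T48h rescue, by position in its cluster. Hoxb genes 1 to 8 stand higher in the T48h rescue, while Hoxb9 and Hoxc13, the 2 called lower, stand higher in the KO, and points at the bottom have 0 fragments.

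Pluripotency genes fell. Of 15 genes of naive pluripotency, 14 were lower and 1 was higher, with a median of -4.66. Nanog fell from 93.7 and 88.2 CPM to 4.60 and 5.78 CPM and the orphan nuclear receptor gene Esrrb from 65.7 and 74.8 CPM to 1.77 and 1.30 CPM (log2 fold change -5.52 ± 0.19, edgeR adjusted p = 5.73e-11). The exception was Tbx3, which is also a heart and limb gene and rose by 0.74. Of 19 genes of general and primed pluripotency, 15 were lower and 3 higher (median -2.79). Pou5f1, which encodes OCT4, fell from 227.8 and 234.4 CPM to 2.61 and 4.80 CPM (log2 fold change -5.95 ± 0.19, edgeR adjusted p = 3.09e-11), and Fgf5, the growth factor of the primed epiblast, from 98.5 and 82.4 CPM to 3.46 and 3.14 CPM. The labels call the material embryonic stem cells, and these defining markers were present in the KO but low in the T48h rescue. In WT, Pou5f1 stood at 21.99 and 21.4 CPM and Nanog at 23.3 and 27.3 CPM, between both groups. The 3 members that rose were Lin28a, Lin28b and the DNA methyltransferase Dnmt3a. Germline genes fell too, 11 lower and 2 higher of 15 (median -3.06, or -2.79 with genes at 0 set to their bound), such as the RNA helicase gene Ddx4, which fell by 2.52.

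Of 16 eye field and retinal genes, 3 were higher and 7 lower (median -0.58), and their summed level was 108.1 and 107 CPM in the KO and 98.7 and 89.6 CPM in the T48h rescue, against 2251 and 2162 CPM in WT. Rax stood at 0.820 and 0.755 CPM in the KO and at 0.545 and 0.245 CPM in the rescue, a log2 fold change of -1.03 ± 0.29 (adjusted p = 0.00641 in edgeR). Without T48h rescue replicate b the difference was -0.54 and no longer called (edgeR adjusted p = 0.157), and it was -1.72 without T48h rescue replicate a. Six3, an eye field factor, stood at 2.17 and 1.38 CPM and then 3.02 and 2.08 CPM and did not pass the test, but was called higher without KO replicate a (0.84, edgeR adjusted p = 0.00775) or T48h rescue replicate b (0.70, edgeR adjusted p = 0.0131). Pax6 and Mab21l2 were called higher, Pax6 going from 1.30 and 0.728 CPM to 11.4 and 10.4 CPM and Mab21l2 from 4.67 and 3.97 CPM to 51.5 and 45.2 CPM. In WT, Pax6 stood at 332.9 and 289.4 CPM and Mab21l2 at 97.7 and 82.9 CPM, so Mab21l2 came nearer to its WT level. Otx2, a forebrain and epiblast gene, fell by 1.96 ± 0.09 on the log2 scale (edgeR adjusted p = 3.82e-10). The count of higher eye field genes became 5 without KO replicate a or without T48h rescue replicate b.

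Neural progenitor genes had 5 higher and 12 lower of 22 (median -1.89, or -1.56 with the gene at 0 set to its bound). Sox2, shared by pluripotent and neural cells, fell from 126.6 and 116.8 CPM to 14.6 and 13.3 CPM, and Sox1, restricted to neural cells, fell by 2.64 on the log2 scale. Genes that rose in this list included Cdh2, N-cadherin, which heart and mesenchyme also use. Of 15 neuronal genes 12 were lower and 2 higher (median -1.87), among them Tubb3, the neuronal tubulin, which fell by 2.52. The 2 higher became 0 without KO replicate a and 1 without either T48h rescue library. Neural crest genes had 10 higher and 3 lower of 15 (median 1.48), but the 3 lower became 1 without T48h rescue replicate b. Several that rose are shared with mesenchyme, such as Snai2 and Twist1. Sox10, a defining factor of the crest, rose from 0.220 and 0.297 CPM to 8.88 and 8.51 CPM, while Foxd3, an early crest factor, fell by 0.86, a call lost without KO replicate b (-0.61, edgeR adjusted p = 0.155) or T48h rescue replicate b (-0.63, edgeR adjusted p = 0.124).

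Signalling genes were read by pathway. In the BMP pathway, whose ligands act through SMAD1, SMAD5 and SMAD9 and induce mesoderm, 17 of 21 tested genes were higher and 1 lower, with a median of 1.86. Among ligands, Bmp4 rose from 11.4 and 13.5 CPM to 181.4 and 173.8 CPM and Bmp5 from 6.24 and 4.48 CPM to 229.1 and 223.1 CPM. The receptor gene Bmpr1a rose by 1.38, and the targets and feedback inhibitors Msx1 and Smad6 rose by 4.28 ± 0.19 and 4.69 ± 0.13 on the log2 scale. Chrd, which encodes the secreted BMP inhibitor chordin, was the gene that fell, from 3.35 and 3.70 CPM to 0.436 and 1.13 CPM, and it did not pass the filter on low values of the FPKM fits, so it was not tested there. Its log2 fold change was -2.16, or -3.00 without T48h rescue replicate b.

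In the Nodal pathway, the TGF-beta branch that sustains the epiblast and the streak, 9 of 15 tested genes were higher and 5 lower (median 0.62). Of the 4 ligands listed, Nodal and Gdf3 fell, Gdf1 did not pass the test and Inhba was not tested. Gdf3, a Nodal-related ligand of pluripotent cells, had 27.4 and 31.6 CPM in the KO and 0 and 0.0735 CPM in the T48h rescue, a ratio of 3043 to 3 fragments that amounts to 746-fold (95% counting interval 255 to 3620). Nodal fell from 61.8 and 57.4 CPM to 2.04 and 2.06 CPM (log2 fold change -4.86 ± 0.19, edgeR adjusted p = 1.34e-10), and the locus of its inhibitors Lefty1 and Lefty2 fell by 4.73. The 2 EGF-CFC co-receptors of Nodal moved in opposite directions, as Tdgf1 (Cripto) fell by 1.74 and Cfc1 (Cryptic) rose from 4.54 and 2.62 CPM to 168.9 and 187.7 CPM (log2 fold change 5.59 ± 0.20, edgeR adjusted p = 8.44e-11). Foxh1, the DNA-binding partner of SMAD2, rose by 1.90 ± 0.09.

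Wnt genes were mixed, with 10 higher and 9 lower of 21 (median 0.58). The streak ligands Wnt3 and Wnt8a fell, Wnt3 from 37.2 and 41.5 CPM to 13.0 and 16.2 CPM, and Wnt8a from 38.3 and 25.8 CPM to 0.163 and 0.0735 CPM. Wnt8a had a log2 fold change of -8.07, or -8.74 without T48h rescue replicate a. Wnt5a and Wnt11, ligands that act largely without beta-catenin, rose by 2.98 and 1.86 on the log2 scale, and the heart ligand Wnt2 rose from 0.205 and 0.917 CPM to 77.3 and 74.0 CPM, by 7.29 (6.32 without KO replicate a and 8.51 without KO replicate b). Of the other listed Wnt ligands, Wnt5b was higher, Wnt2b, Wnt4 and Wnt6 were lower, and Wnt3a did not pass the test. The pathway target Axin2 fell by 0.45, a call lost without KO replicate b (-0.39). Other listed targets were mixed: Lef1, Tcf7 and Nkd1 were called higher, Sp5 and Notum lower, and Lgr5 did not pass the test. Retinoic acid, Hedgehog and Notch targets had 7 higher and 8 lower of 19 (median -0.36): Cyp26a1, which degrades retinoic acid, fell by 2.53, and Hey2, a Notch target of ventricular muscle, rose by 4.55.

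Epithelial genes fell and mesenchymal regulators rose. Of 23 epithelial junction and keratin genes, 18 were lower and 3 higher (median -2.33). Cdh1, which encodes E-cadherin, fell from 958.2 and 961.1 CPM to 63.1 and 70.9 CPM (log2 fold change -3.84 ± 0.12, edgeR adjusted p = 1.77e-11), beside 62.7 and 54.8 CPM in WT, and the cell adhesion gene Epcam fell by 2.69. Perp, a desmosome gene and p53 target, fell from 198.9 and 190.7 CPM to 12.2 and 10.7 CPM (log2 fold change -4.09 ± 0.11, edgeR adjusted p = 6.10e-12). The keratins Krt8 and Krt18, partners in simple epithelia and in early heart and extraembryonic tissue, rose by 0.97 and 1.02, whereas Krt5 of stratified epithelium fell by 6.13. All 11 mesenchymal transition regulators were higher (median 3.43). Snai2, the Slug repressor of E-cadherin, rose from 0.410 and 0.432 CPM to 123.1 and 105.6 CPM (log2 fold change 8.09 ± 0.23, edgeR adjusted p = 1.13e-11), Zeb1, a second such repressor, rose by 4.04 ± 0.11, and the intermediate filament gene Vim by 1.76 ± 0.08.

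The matrix list of 28 had 15 higher and 10 lower, with a median of 1.601, and 9 of the 10 that fell, chosen here after their values were seen, encode parts of the basement membrane, while Lama4, also of basement membranes, rose. Col4a1, a chain of collagen IV, was among the most abundant transcripts of the KO at 9667 and 10130 CPM and fell to 1149 and 1296 CPM (log2 fold change -3.02 ± 0.08, edgeR adjusted p = 4.83e-12). Lama1, the alpha chain of embryonic laminin, fell from 4811 and 5099 CPM to 208.1 and 268.9 CPM (log2 fold change -4.38 ± 0.11, edgeR adjusted p = 5.01e-12), and Lamb1, Lamc1 and Col4a2 fell by 2.63, 2.86 and 3.14. Sparc, a collagen-binding protein, was the other gene that fell. These levels lay below WT as well, where Col4a1 stood at 2426 and 2266 CPM. Col1a1, a chain of fibrillar collagen, rose from 6.67 and 4.80 CPM to 506.7 and 599 CPM, and Fn1, fibronectin, from 300.9 and 322.6 CPM to 2285 and 2207 CPM. Fbn1, which encodes fibrillin, rose by 4.63, and Lama4, the laminin chain of vessel walls, by 3.89. Col6a3, Dcn and Lum did not pass the test.

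**Figure D5:**
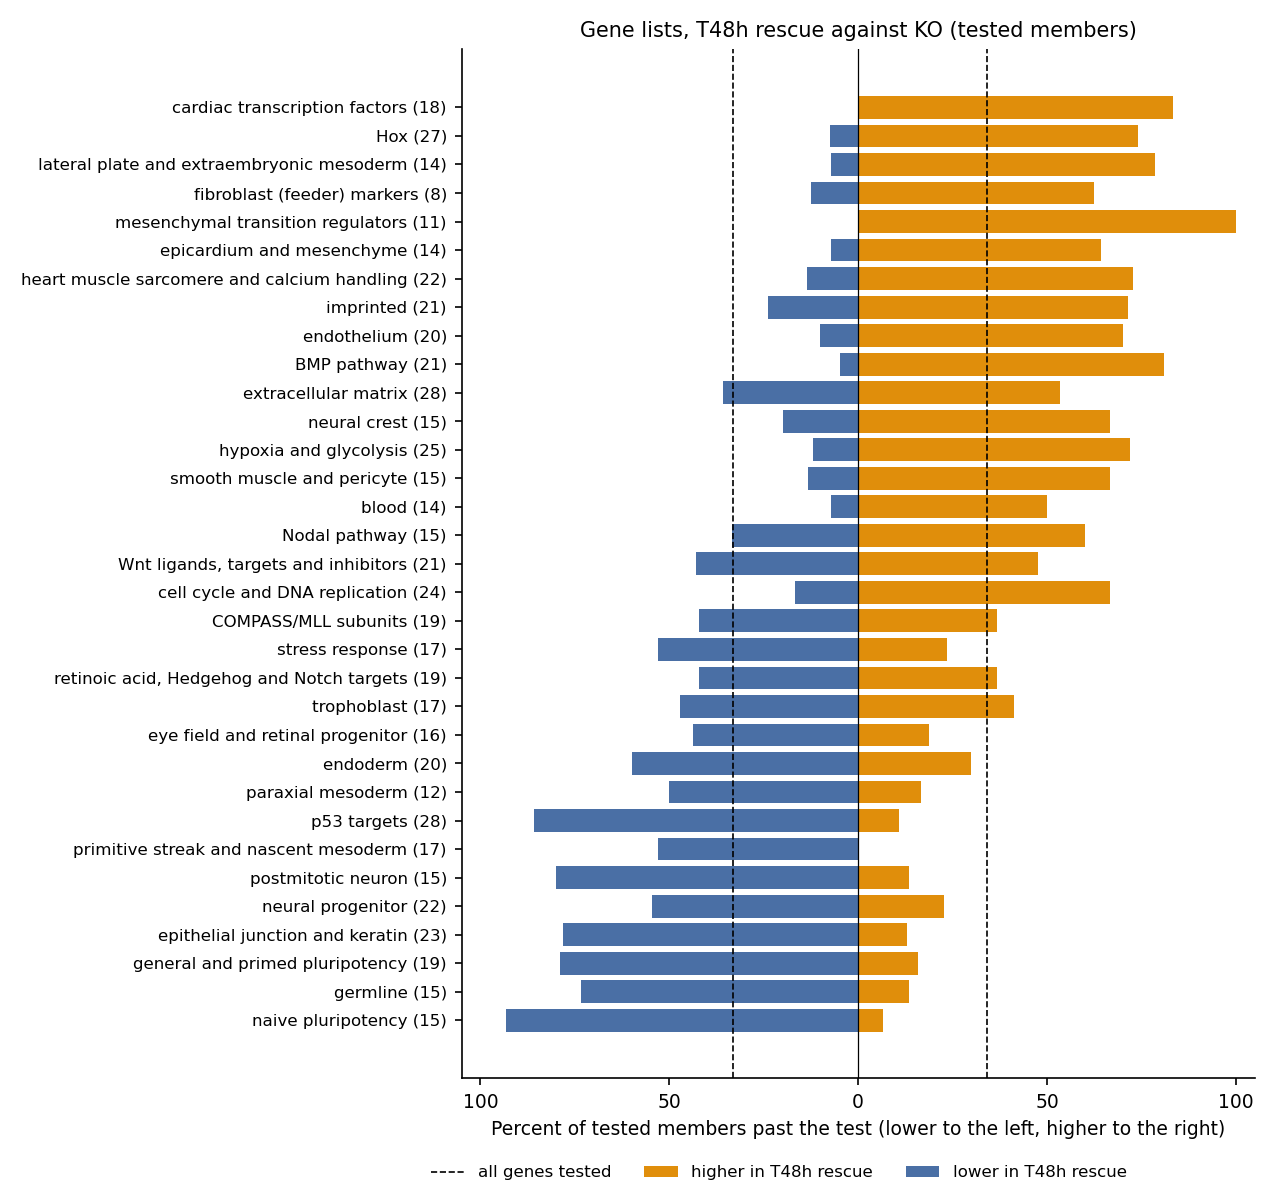
Share of the tested members of 33 gene lists called higher (right) or lower (left) in the T48h rescue than in the KO, ordered by median log2 fold change, with the number of tested members in brackets. Dashed lines mark the shares over all genes tested (34.2% higher, 33.2% lower). Cardiac factors, Hox and the lateral plate and extraembryonic mesoderm list lie at the top and pluripotency and germline lists at the bottom. The paraxial mesoderm and primitive streak lists lie lower than the lateral plate list, with medians of -0.91 and -1.43.

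Genes that p53 activates fell together. Of 28 targets, 24 were lower and 3 higher, with a median of -1.18, and their summed level went from 6333 and 6155 CPM in the KO to 2345 and 2399 CPM in the T48h rescue, beside 2511 and 2583 CPM in WT. Cdkn1a, which encodes the cell cycle inhibitor p21, fell from 287.6 and 295 CPM to 66.1 and 72.3 CPM (log2 fold change -2.07 ± 0.08, edgeR adjusted p = 1.89e-10). Mdm2, the ubiquitin ligase that degrades p53, fell from 487.4 and 458.5 CPM to 128.9 and 136.7 CPM, and Btg2, an antiproliferative gene, fell by 2.80 ± 0.11. The death genes Bax and Bbc3 fell by 1.05 and 1.15. Sesn1, a stress-induced target, rose from 23.4 and 18.96 CPM to 49.6 and 52.2 CPM, and the repair genes Ddb2 and Xpc rose by 0.89 and 0.43, the call on Xpc being lost without KO replicate b (0.28, edgeR adjusted p = 0.0604).

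Proliferation genes rose modestly. Of 24 cell cycle and replication genes, 16 were higher and 4 lower (median 0.47). Mki67, the Ki-67 antigen of cycling cells, rose from 454.3 and 461 CPM to 1449 and 1380 CPM, and Top2a, the topoisomerase of mitotic chromosomes, by 1.09, whereas the cyclin D1 locus (Ccnd1, joined in the table with Mir3962) fell by 1.17 ± 0.08. Of 25 genes of hypoxia and glycolysis, 18 were higher and 3 lower (median 1.34). Ldha, lactate dehydrogenase, rose from 589.9 and 605.2 CPM to 1832 and 1762 CPM, Bnip3, a mitochondrial hypoxia target, from 11.6 and 10.9 CPM to 150.5 and 128.5 CPM, and the vessel growth factor gene Vegfa by 2.61. Gapdh stood under 1 CPM in these 4 libraries. It has many near-identical pseudogene copies and its value is uncertain. Stress response genes had 4 higher and 9 lower of 17 (median -0.23), and the heat shock gene Hspa1b, which has a near-identical neighbour and is uncertain too, fell by 3.62.

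Imprinted genes, which are read from only the maternal or the paternal copy and many of which govern growth, were mostly higher, 15 of 21 with 5 lower (median 2.11). The non-coding RNA H19 rose from 1396 and 1472 CPM to 6466 and 5915 CPM and the amino acid transporter gene Slc38a4 from 172.2 and 163.1 CPM to 1444 and 1408 CPM. Their summed level went from 8627 and 8644 CPM to 25570 and 24680 CPM, above the 8662 and 9108 CPM of WT. The growth inhibitor gene Cdkn1c rose by 3.07 ± 0.12, Phlda2, a placental growth inhibitor, by 3.61 and Dlk1, a Notch-like ligand, by 5.67. Peg3 rose from 1320 and 1339 CPM to 6739 and 6738 CPM, but the authors' software marked its estimate as failed in at least 1 column, as it did for Peg10. The summed level above includes Peg3 and Peg10. Both parental classes were among the genes that rose, since H19, Cdkn1c and Phlda2 are read from the maternal copy and Dlk1 and Slc38a4 from the paternal one. Grb10 and Igf2r, growth inhibitors, fell by 1.73 and 1.67.

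The 12 largest decreases by the naming rule were of mixed kinds. Gkn1 and Gkn2, neighbours on chromosome 6 that encode secreted proteins of the stomach lining, had 1658 and 1481 fragments in the KO and 1 each in the T48h rescue. The ratios were 1220 (95% counting interval 219 to 48200) and 1089 (195 to 43060). Aoah, which encodes an enzyme that inactivates bacterial lipopolysaccharide, had 10.4 and 9.01 CPM in the KO and no fragment in the rescue, at least 255.5-fold lower. Spp1, osteopontin, fell from 49.5 and 45.05 CPM to 0.299 and 0.221 CPM (log2 fold change -7.5 ± 0.25, edgeR adjusted p = 3.68e-11), and Fgfbp1, which releases stored FGF, from 77.8 and 78.4 CPM to 0.572 and 0.221 CPM (-7.64, or -8.48 without T48h rescue replicate a). Btla, Galnt9, Sec14l3, Col6a4 and Cyp2c44 had 1 to 3 fragments in the rescue, against 559 to 1864 in the KO. All 12 were low in the T48h rescue, which picking the largest decreases favours. In WT, Spp1 was the highest of them, at 10.8 and 10.9 CPM. Gdf3, Gkn2 and Fgfbp1 stood at 1.03 to 3.98 CPM there, and the others stood under 1 CPM in both WT libraries.

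For the named genes the same fit gave the difference from WT, where 7628 of 16130 genes (47.3%) differed, and from the T12h rescue, where 8101 (50.2%) differed. These comparisons share the T48h rescue libraries with the one above. Hand1, Tbx20 and Hand2 stood above WT by 6.88 ± 0.18, 6.19 ± 0.14 and 10.43 ± 0.20 on the log2 scale (edgeR adjusted p = 5.71e-12, 1.86e-12 and 5.21e-13, in that order), and above the T12h rescue by 7.60, 6.87 and 8.59. Rax stood below WT by a log2 difference of -8.96 ± 0.16 (edgeR adjusted p = 2.99e-13; -9.65 without T48h rescue replicate a). Perp came near WT, with 7.99 and 9.08 CPM there and a difference of 0.42 ± 0.11 (edgeR adjusted p = 0.00765), a call lost without WT replicate a (0.28, edgeR adjusted p = 0.127) or T48h rescue replicate a (0.29, edgeR adjusted p = 0.0948). Wdr5 stood at 328.9 and 336.8 CPM in the T12h rescue, above the T48h rescue, by a log2 difference for T48h rescue minus T12h rescue of -0.21 ± 0.07 (edgeR adjusted p = 0.0285), a call that several alternatives lost. Among lists, the median difference of the T48h rescue from WT was -0.001 for p53 targets and 4.55 for cardiac factors, and that of the KO from WT was 1.25 and 0.41.

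Chromosome 8, which carries Hand2, Cdh1, Col4a1 and Col4a2, stood above WT in all 3 groups made from the knockout. Its 852 tested genes had a median log2 difference from WT of 0.49 in the KO, 0.39 in the T48h rescue and 0.49 in the T12h rescue, but of -0.08 between the T48h rescue and the KO, where 283 were higher and 313 lower. The part of this shift in the results on those genes was not tested. Refitting without chromosome 8 left 5209 genes higher and 5047 lower.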

How the data were processed

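RNA from day 6 embryoid bodies was sequenced by the authors in 4 groups of 4 samples, of which repeats 1 and 2, and 3 and 4, were treated as technical repeats. Columns of such pairs differed by a chi-square of 1.565 to 1.822 per degree of freedom on average. Reads were processed with TopHat2 2.1.1, SAMtools 1.5, deepTools and Cufflinks 2.2.1 on mm10, per the submitters' processing notes. Which annotation was used, and whether strand was, is not given in the sources used here. The deposited tables hold the authors' estimated count of fragments and their FPKM per gene, per the file headers. The low values of each column were multiples of a step of 0.63 to 1.29. Dividing by that step gave whole fragments for 90.9% to 92.1% of values within 0.02, and these were rounded and summed over technical repeats. Another 112 value columns were not used, and 5143 unnamed loci with 3.16% to 6.12% of fragments were left out. Libraries held 32476665 to 65687443 fragments.

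edgeR 4.0.16 in R 4.3.3 (filterByExpr, TMM scaling, quasi-likelihood test with Benjamini-Hochberg adjustment) was fitted to all 4 groups, with 4 residual degrees of freedom and a biological coefficient of variation of 12.6%, and was tested on simulated data. Alternatives used DESeq2 1.42.0, limma 3.58.1 on log2 FPKM plus 1 or 0.1, other scalings and filters, and left out 1 library or chromosome 8. Loci whose estimate the authors' software marked as failed were left out in an alternative chosen after seeing the data. Members and lists were chosen with earlier results of these data known. Named were 5 markers and Rax, the 12 largest increases and 12 largest decreases at 5 CPM or more, and up to 4 called members a list with the smallest adjusted p. Further list members were named after their values were seen. Promoters are the 250 bases before the start, a shorter window than first planned. Folds against 0 fragments use a floor of 3 over the group, and counting intervals cover counting error only, as reads without molecular identifiers are not independent molecules. Where several loci shared a symbol, the one with most fragments kept the gene's name, and the others stayed as separate entries. Some results on single genes are not reported here.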

Additional observations from a re-analysis of the deposited data

Results flagged for a closer look

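Hand1 and Rax had differences from the KO of opposite sign in the T48h and the T12h rescue, each past the test. Hand1 rose in the T48h rescue but fell in the T12h rescue by 1.24 on the log2 scale against the KO (edgeR adjusted p = 3.39e-05), and the log2 difference of the T48h rescue minus the T12h rescue was 7.60 (edgeR adjusted p = 2.93e-12). Rax fell in the T48h rescue but rose in the T12h rescue by 8.10 on the log2 scale against the KO (edgeR adjusted p = 2.88e-13), and the difference between both rescues was -9.13 (edgeR adjusted p = 2.04e-13), or -9.82 without T48h rescue replicate a. The lower level of Rax in the T48h rescue, under 1 CPM as in the KO, was not called without T48h rescue replicate b (-0.54, edgeR adjusted p = 0.157) or with only those 2 groups in the fit (-1.04, edgeR adjusted p = 0.29), so the opposite sign of Rax is not established. Both effects are taken against the same KO libraries.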

How the results depend on the processing

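The counts of genes called against the KO stayed within 1.5 times of the reported ones under every alternative run. Over these, 4569 to 5500 genes were higher and 4539 to 6139 lower, and leaving out each library in turn gave 4974 to 5110 higher and 4879 to 5133 lower. DESeq2 called 5073 higher and 5410 lower. Upper-quartile scaling moved the median log2 fold change of all genes to -0.147 and called 4717 higher and 6139 lower. Of 213 named genes, 187 had a value under all 15 alternatives and 179 of these kept their call against the KO. The 8 others were Rax, Six3, Nppb, Srf, Tnni3, Axin2, Foxd3 and Xpc. The other 26 named genes, such as Chrd, were not tested under at least 1 alternative and kept their call in those where they were. Of 29 named genes compared with WT and with the T12h rescue, 22 had a value under every alternative, and 19 and 20 of these kept their call. Of the other 7 in each comparison, 4 and 5 kept their call where tested. In all, the call changed under an alternative for 6 of the 29 against WT and 4 against the T12h rescue. Where tested, no named gene turned its direction past the test. Of 990 recomputed list counts, 26 moved over 1.5 times, 21 of them with both counts under 6. With only the KO and T48h rescue in the fit, 3 eye field genes in place of 7 were lower and Rax was not called (-1.04, edgeR adjusted p = 0.29), and with FPKM values 5 trophoblast genes in place of 8 were lower (14 tested in place of 17). A lone library was assumed to vary like the other groups. No paired analysis was possible because the table's columns carry no duplicate numbers that tie libraries across groups, so the planned fit with a replicate block was not run. Genes at a few fragments have fitted sizes that depend on single libraries.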
